A study of Arabidopsis thaliana with 6 samples.

Results

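The 10 genes described here encode the machinery that spins cellulose at the plant plasma membrane. With earlier results of these data known, they were picked out by gene identifier, for their known role, from 27655 genes in the deposited table. Of these, 7 belong to the machinery of the primary wall, the thin wall of growing cells: the catalytic subunits CESA1 (AT4G32410), CESA2 (AT4G39350), CESA3 (AT5G05170), CESA5 (AT5G09870) and CESA6 (AT5G64740), the endoglucanase KOR1 (AT5G49720) and the linker protein CSI1 (AT2G22125). The other 3 are the catalytic subunits of the secondary wall, CESA4 (AT5G44030), CESA7 (AT5G17420) and CESA8 (AT4G18780). RNA from Arabidopsis thaliana (ecotype Col-0) was sequenced in 6 libraries, each from whole seedlings that were 14 days old and had been raised on MS-agar plates in long days. The air group (3 libraries) stayed out of water for 1 h, and the submerged group (3 libraries) was kept in distilled water for 1 h. No mutant or transgene is named for either group. Library totals ran from 20041244 to 29673924 counts.

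Cellulose synthase subunits assemble into rosette-shaped complexes that extrude glucan chains into the wall while moving along cortical microtubules. Primary wall complexes need CESA1, CESA3 and a CESA6-type subunit, a position that CESA2 and CESA5 can also fill, whereas the complexes of xylem and fibre cells are built from CESA4, CESA7 and CESA8. KOR1 associates with the complex and is required for normal cellulose synthesis, and CSI1 tethers the complex to microtubules.

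All 7 primary wall genes rose within 1 h under water, by 2.18-fold (CESA1) to 3.22-fold (CESA5), and the 3 secondary wall genes did not pass the test, at 0.892-fold to 0.911-fold of air. Counts were tested with edgeR's quasi-likelihood test over 19495 genes, and a gene was called at a Benjamini-Hochberg adjusted p under 0.05. Of all genes tested, 55.0% were called, 28.8% higher and 26.1% lower, so a call by itself was common in these libraries. In whole seedlings, more or fewer cells of a type cannot be told apart from more or less RNA per cell. The submerged and air libraries did not overlap in CPM (counts scaled to library size with TMM factors) for any of the 7 primary wall genes, all higher under water; over all genes tested 62.1% did not overlap, 32.2% being higher under water and 30.0% lower. Counting falls as below any rise, 91.5% (CESA1) to 95.4% (CESA5) of tested genes had a lower log2 fold change than each primary wall gene. By size regardless of direction, 86.9% (CESA1) to 94% (CESA5) of tested genes changed less. The median log2 fold change was 1.35 over the primary wall genes, -0.14 over the secondary wall genes and 0.01 over all genes tested.

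**Figure D1:**
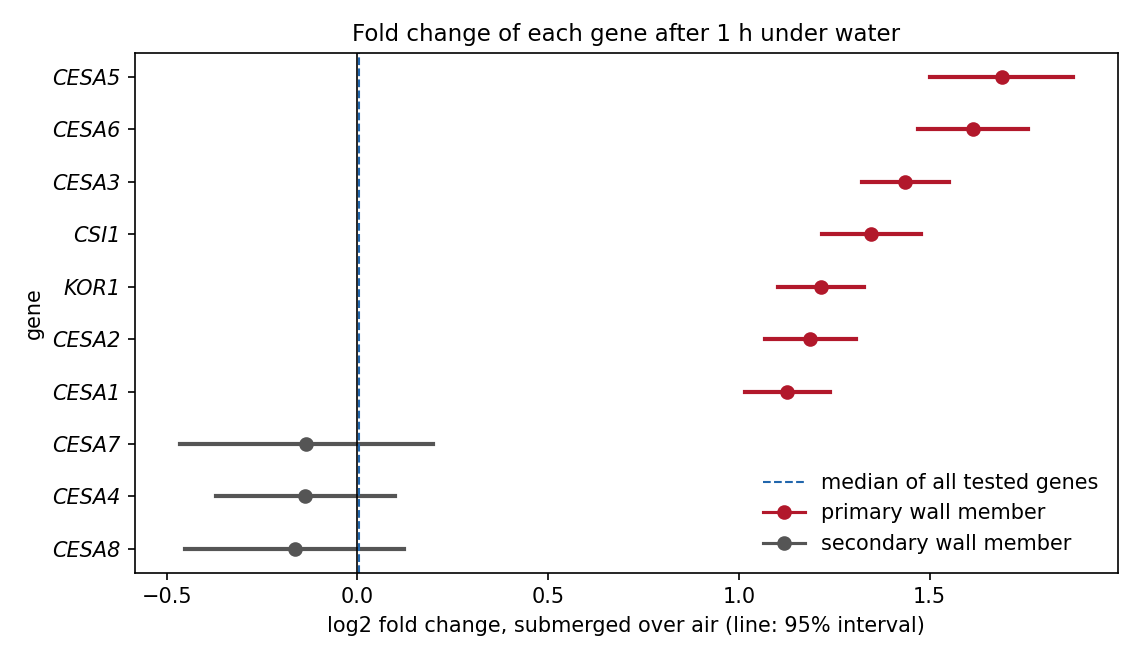
Log2 fold change of each gene, submerged over air, as a point with its 95% interval from the edgeR fit (n = 3 libraries per group); the solid line marks no change and the dashed line the median of all tested genes. The 7 primary wall genes lie between 1.13 and 1.69, and the intervals of the 3 secondary wall genes cross 0.

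Levels of different genes are compared below in TPM, the authors' deposited values corrected for transcript length, and changes are given from the counts. CESA3, a subunit that no primary wall complex can do without, stood at 219, 217 and 220 TPM in the air libraries and at 604, 608 and 567 TPM in the submerged libraries. Its log2 fold change was 1.44 ± 0.05 (SE, n = 3 per group, adjusted p = 2.23e-10), and the smallest submerged value was far above the largest air value. CESA1, the other obligate subunit, had 171, 175 and 174 TPM in air and 377, 387 and 373 TPM under water. Its log2 fold change of 1.13 ± 0.05 (adjusted p = 1.30e-09) was the smallest of the 7, with a 95% interval of the fold (2.02 to 2.36) that overlapped those of CESA2, KOR1 and CSI1.

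CESA6, which gives the remaining position its name, had 94.9, 93.0 and 102 TPM in air and 305, 315 and 269.6 TPM under water. Its log2 fold change was 1.61 ± 0.07 (adjusted p = 5.53e-10). CESA5, a relative of CESA6 also known for its part in seed coat mucilage, had the lowest primary wall level, with 25.7, 25.4 and 29.0 TPM in air and 91.2, 93.9 and 73.8 TPM under water. Its log2 fold change of 1.69 ± 0.09 (adjusted p = 3.74e-09) was the largest of the 10, and its interval of the fold (2.83 to 3.67) overlapped that of CESA6 (2.77 to 3.39). CESA2, a relative that can substitute in part for CESA6, had 62.5, 65.3 and 63.8 TPM in air and 151, 151 and 135 TPM under water (log2 fold change 1.19 ± 0.06, adjusted p = 1.69e-09). Submerged replicate 3 gave the lowest submerged TPM for each of these 5 CESA genes, and it still lay above the highest air library in every case.

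The partner genes moved the same way. KOR1, a membrane-anchored endoglucanase, had 232, 247 and 242 TPM in air and 559.9, 575 and 543 TPM under water, without overlap (log2 fold change 1.22 ± 0.05, adjusted p = 7.97e-10). CSI1, the microtubule linker and the longest transcript of the set, had 46.1, 48.3 and 49.8 TPM in air and 128, 127 and 113 TPM under water (log2 fold change 1.35 ± 0.06, adjusted p = 1.08e-09). The estimates of both partners lay between those of CESA1 and CESA3.

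The secondary wall genes were expressed at much lower levels and their groups overlapped. CESA4 had 5.91, 7.48 and 6.90 TPM in air and 6.58, 6.23 and 5.59 TPM under water. CESA8 had 4.62, 4.10 and 4.52 TPM in air and 4.10, 4.22 and 3.51 TPM under water, and CESA7 had 3.57, 3.47 and 4.16 TPM in air and 3.22, 3.20 and 3.82 TPM under water. Every one of these genes had at least 1 submerged library above an air library. The fold was 0.909 for CESA4 (95% interval 0.773 to 1.07, adjusted p = 0.306), 0.892 for CESA8 (0.731 to 1.09, adjusted p = 0.314) and 0.911 for CESA7 (0.724 to 1.15, adjusted p = 0.481), all by edgeR's test. None of the 3 had an unadjusted p under 0.05, and 0 of them were called by edgeR, DESeq2 or limma voom. The summed counts behind these values were 497 to 1043 per gene and group, against 4547 to 98221 for the primary wall genes, so small changes in the secondary wall genes were not detectable, while the upper ends of their intervals, 1.07 to 1.15, lie under the smallest primary wall rise.

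**Figure D2:**
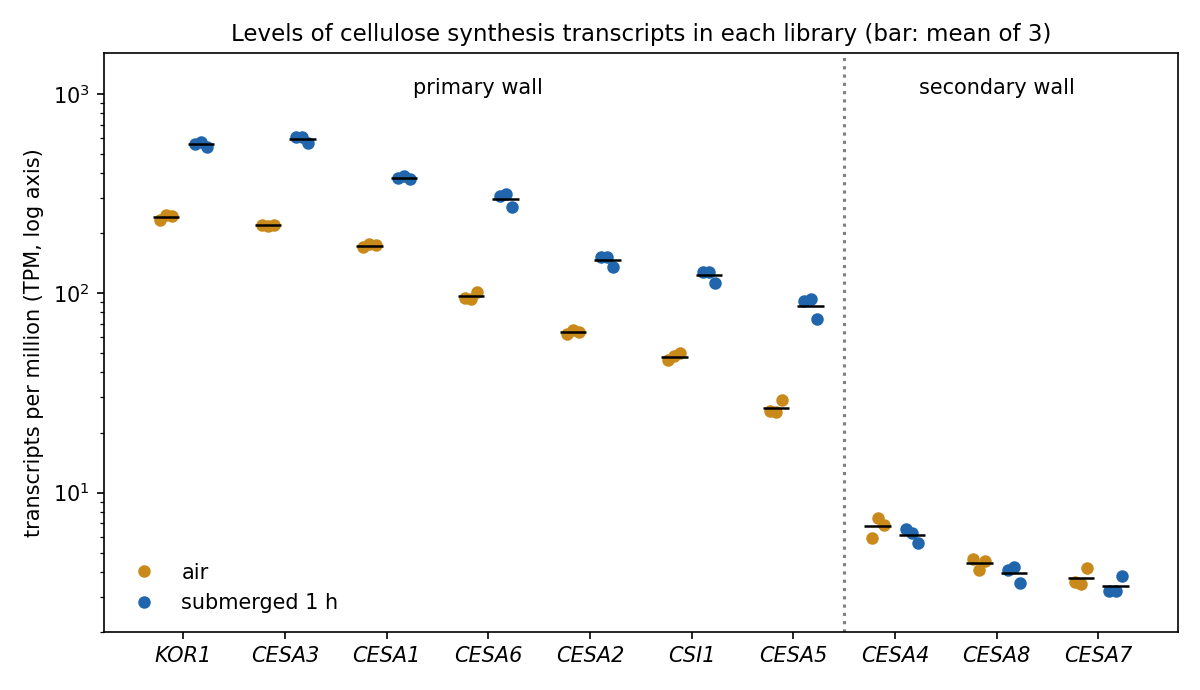
Deposited TPM (log axis) of each gene in every library, ordered by the air mean, with air in ochre and submerged in blue; bars mark the mean of 3 libraries. For the 7 primary wall genes all submerged points lie above all air points, and for CESA4, CESA8 and CESA7 the points of both groups overlap.

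In air the order of TPM levels ran from KOR1 (240.4 ± 8.07, SD, n = 3) through CESA3 (218 ± 1.59), CESA1 (173 ± 2.38), CESA6 (96.6 ± 4.56), CESA2 (63.9 ± 1.43), CSI1 (48.1 ± 1.90) and CESA5 (26.7 ± 2.02) to CESA4 (6.76 ± 0.791), CESA8 (4.41 ± 0.276) and CESA7 (3.73 ± 0.373). Neighbours in this order had separate libraries, except CESA8 and CESA7, whose libraries overlapped. Under water CESA3 (593 ± 22.7 TPM) and KOR1 (559 ± 16.1 TPM) came first and their libraries overlapped, while the remaining places were unchanged and CESA8 again overlapped with CESA7. The same order was found in both groups with the deposited RPKM values.

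The summed TPM of the 5 primary wall CESA genes was 579 ± 7.91 in air and 1500.5 ± 73.1 under water (SD, n = 3), against 14.9 ± 0.749 and 13.5 ± 0.510 for the 3 secondary wall genes. The secondary wall genes therefore made up 2.40%, 2.55% and 2.58% of CESA transcripts in the air libraries and 0.901%, 0.870% and 0.903% in the submerged libraries. Between the group means, submerged minus air, the primary wall sum in the denominator differed by 922 TPM and the secondary wall sum by -1.42 TPM.

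**Figure D3:**
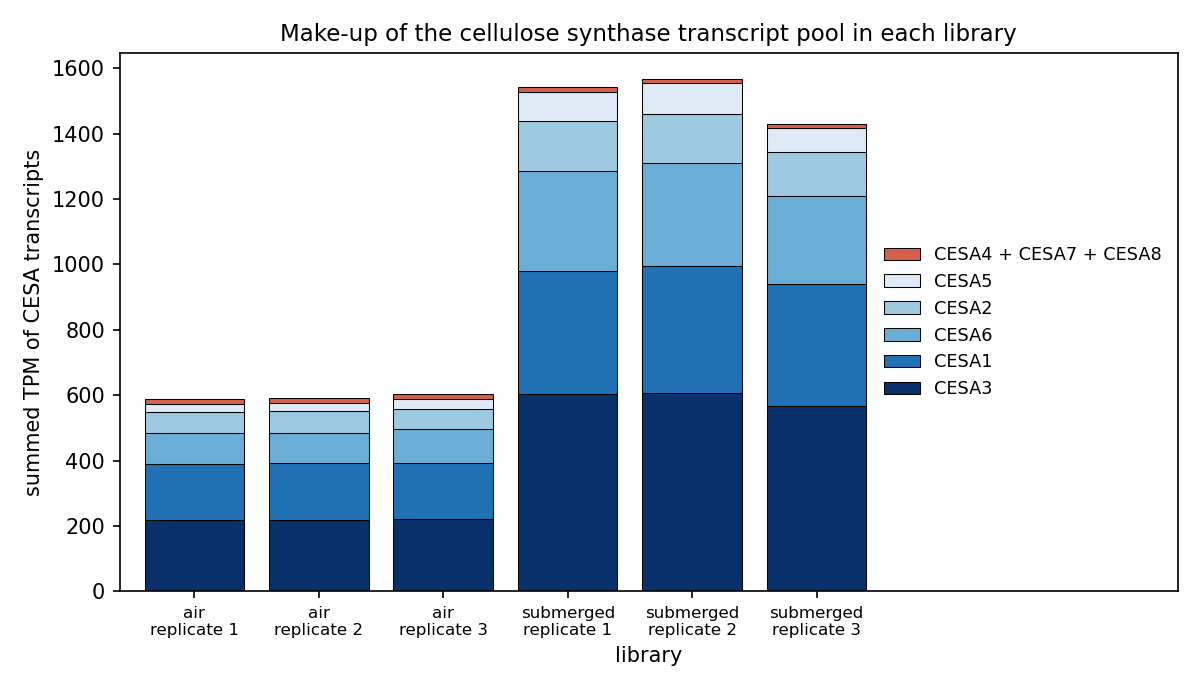
Summed TPM of the 8 CESA genes in each library, stacked by gene, with the 3 secondary wall genes drawn as 1 segment at the top. The stack reaches about the same height in the 3 air libraries and is higher in every submerged library, where submerged replicate 3 is the lowest.

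Within the primary wall pool the subunits did not rise evenly. CESA1 made up 29.8%, 30.5% and 29.5% of primary wall CESA transcripts in air and 24.7%, 24.9% and 26.3% under water. CESA3 made up 38.2%, 37.6% and 37.4% in air and 39.5%, 39.1% and 39.98% under water, and the CESA6-type genes CESA2, CESA5 and CESA6 together 32.0%, 31.9% and 33.1% in air and 35.8%, 36.0% and 33.7% under water. Ratios within a library show the same without reference to scaling between libraries. The ratio of CESA1 to CESA3 was 0.793 ± 0.0154 in air and 0.640 ± 0.0169 under water (SD, n = 3), and that of CESA6 to CESA2 was 1.51 ± 0.0850 in air and 2.03 ± 0.0409 under water, both without overlap. The ratio of CESA5 to CESA6, in contrast, was 0.276 ± 0.00799 in air and 0.290 ± 0.0140 under water, and its groups overlapped. Of 8 ratios computed, 7 did not overlap and had an exact two-sided permutation p of 0.1, which is the smallest that 3 against 3 libraries allow (0.114 after Benjamini-Hochberg adjustment over the 8), so no ratio could pass the threshold in this design. The 8 pairs were picked by hand outside the planned results, and the share of other gene pairs without overlap was not computed. Over single genes tested, 62.1% did not overlap in CPM.

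Sequence relationships among the catalytic subunits were read from the TAIR10.1 annotation. Coding sequences of CESA5 and CESA6 were the most alike, at 85.7% identity over 3207 aligned bases, and CESA2 was closest to CESA9 (84.5%). CESA2 shared 78.3% with CESA5 and 77.7% with CESA6, while CESA1 and CESA3 shared 69.6% and the secondary wall genes 67.6% to 68.4% with each other. The closest pair, CESA5 and CESA6, also had the largest rises of the 10 members, a description over few genes. The next pair, CESA2 and CESA9, had log2 fold changes of 1.19 and -0.67, with CESA9 on few counts and not called. CESA1 and CESA10 shared 83.9%, and CESA10 was below the count filter. Identical stretches were rare at this divergence. Of all 50-base stretches in each transcript, CESA5 and CESA6 shared 1 with each other, and no stretch of the other 8 members occurred in the transcript of another gene. How the reads themselves were assigned among these genes was not tested.

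CESA9 and CESA10 are the remaining family members, and CESA9 is known mainly from pollen and seed. CESA9 had 90 counts in air and 62 under water over 3 libraries each and did not pass the test (log2 fold change -0.67 ± 0.47, adjusted p = 0.251 by edgeR's test); without air replicate 1 it was called lower (-1.08, adjusted p = 0.0447). CESA10 was below the count filter.

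Other listed genes that serve cellulose synthesis mostly rose, though this and the other gene lists were chosen with earlier results of these data known. The list of 27, which covers trafficking, guidance, wall sensing and the supply of UDP-glucose, had 25 genes tested, of which 17 rose and 2 fell; 76% were called and the median log2 fold change was 0.59, beside 55.0% and 0.01 over all genes tested. The largest rise was that of KOR2 (AT1G65610), a relative of KOR1, from 4.61, 3.20 and 3.39 CPM to 13.2, 17.2 and 16.9 CPM (2.06 ± 0.17 on the log2 scale). CC1 (AT1G45688), a companion protein that keeps complexes on microtubules under salt stress, went from 76.4 ± 6.01 to 293 ± 14.4 CPM (1.94 ± 0.07). THE1 (AT5G54380), a receptor kinase that senses defects in cellulose, went from 63.2 ± 0.634 to 202 ± 14.0 CPM (1.68 ± 0.06). These 3 genes had no submerged library at or below an air library.

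CMU2 (AT3G27960), which holds cortical microtubules in place while the complexes pass, rose by 1.48 ± 0.09 on the log2 scale. COB (AT5G60920), a membrane-anchored protein required for oriented cellulose deposition, rose by 1.44 ± 0.06, about as much as CESA3. The Golgi proteins STL1 (1.13 ± 0.07) and STL2 (0.92 ± 0.07), which promote assembly of the complexes, rose as well. Among relatives of CSI1, CSI2 rose by 0.88 ± 0.10 and CSI3 stood at -0.15 ± 0.09 without passing the test (adjusted p = 0.199 by edgeR's test), though it was called lower with upper quartile scaling (-0.27, adjusted p = 0.0273).

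Among genes that supply the substrate, UGP1 (AT3G03250) and UGP2 (AT5G17310), which make UDP-glucose, had log2 fold changes of 0.54 ± 0.07 and 0.59 ± 0.06, both called, and CINV1 (AT1G35580), a cytosolic invertase, rose by 0.52 ± 0.07. CINV2 (AT4G09510), its paralog, fell by 0.47 (SE 0.13), and FEI1 (AT1G31420), a receptor kinase of wall synthesis in roots, fell by 0.18 (SE 0.05). These 2 were the only genes of this list called lower; FEI1 lost its call without air replicate 1, submerged replicate 1 or submerged replicate 2 (adjusted p from 0.0547 to 0.0769 by edgeR's test).

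The listed genes for xyloglucan and pectin, matrix polysaccharides in which primary wall cellulose is embedded, rose as well. Genes for other matrix polysaccharides were not in this list. All 8 listed genes were called higher, beside 28.8% of all genes tested, with a median log2 fold change of 1.64 and a range from 0.54 (GAUT7) to 2.77. The highest was XXT1 (AT3G62720), a xylosyltransferase that decorates xyloglucan, which went from 28.3 ± 1.35 to 193.7 ± 8.43 CPM (adjusted p = 1.22e-11 by edgeR's test). QUA2 (AT1G78240), a putative methyltransferase of pectin synthesis, rose by 2.52 ± 0.06, XXT5 (AT1G74380), a further xylosyltransferase, by 2.33 ± 0.07, and MUR3 (AT2G20370), a galactosyltransferase of xyloglucan, by 1.97 ± 0.10.

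The cellulose synthase-like genes, which share the catalytic fold and make other glycans, held both rises and falls, as did all genes tested. Of 30 listed, 24 were tested, 9 rose and 7 fell (66.7% called, beside 55.0% of all genes), with a median log2 fold change of 0.23. That median turned negative when air replicate 3 (-0.02) or submerged replicate 1 (-0.05) was left out. CSLC12 (AT4G07960) and CSLC4 (AT3G28180), of the subfamily that makes the xyloglucan backbone, rose by 3.10 ± 0.21 and 2.51 ± 0.07. CSLD2 (AT5G16910) and CSLD3 (AT3G03050), known from the walls of root hairs, rose by 2.27 ± 0.07 and 1.65 ± 0.07. The largest falls were those of CSLB6 (AT4G15320, -2.55 ± 0.57, with 56 counts in air and 10 under water), CSLB3 (AT2G32530, -1.82 ± 0.26), CSLB4 (AT2G32540, -1.43 ± 0.13) and CSLG3 (AT4G23990, -0.97 ± 0.26). How far reads of the related genes CSLB3 and CSLB4 were split between them is unknown, and their individual values are therefore uncertain.

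The genes that build secondary walls alongside CESA4, CESA7 and CESA8 were called in both directions. Of 19 tested, 3 rose and 3 fell (31.6% called, beside 55.0% of all genes), with a median log2 fold change of -0.05 whose sign depended on single libraries. Those that rose were PARVUS (AT1G19300, 0.55 ± 0.15) and IRX14 (AT4G36890, 0.44 ± 0.09), both of xylan synthesis, and XCP2 (AT1G20850, 0.29 ± 0.08), a protease of xylem vessels. Those that fell were LAC17 (AT5G60020, -0.67 ± 0.16), a laccase of lignification, IRX7 (AT2G28110, -0.65 ± 0.17), a xylan glycosyltransferase, and FLA11 (AT5G03170, -0.37 ± 0.14), a fasciclin-like protein. The weakest of these calls were FLA11, which passed without submerged replicate 1 but not without any other library (adjusted p from 0.0646 to 0.0958 by edgeR's test), and XCP2, which did not pass without air replicate 1 (0.0568) or with upper quartile scaling (0.115). LAC4 (AT2G38080), the other main laccase of the list, had a log2 fold change of -0.20 ± 0.15 that missed the threshold (adjusted p = 0.276 by edgeR's test). Several builders that were not called had few counts, down to 42 per gene and group, with an SE of up to 0.68. Small changes in those builders were not detectable, which limits the share called.

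Most regulators of the secondary wall programme had few counts. Of 16 listed, 11 were tested and 1 was called (9.09%, beside 55.0% of all genes). This was VNI2 (AT5G13180), a NAC repressor of vessel formation, called lower, from 53.7 ± 1.64 to 32.3 ± 1.58 CPM (-0.73 ± 0.06). The remaining 10 did not pass the test, among them the master regulators MYB46 (AT5G12870), MYB83 (AT3G08500) and VND7 (AT1G71930), whose counts summed to 27 to 74 per group. NST1, SND1, MYB85, MYB54 and MYB103 were below the count filter.

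**Figure D4:**
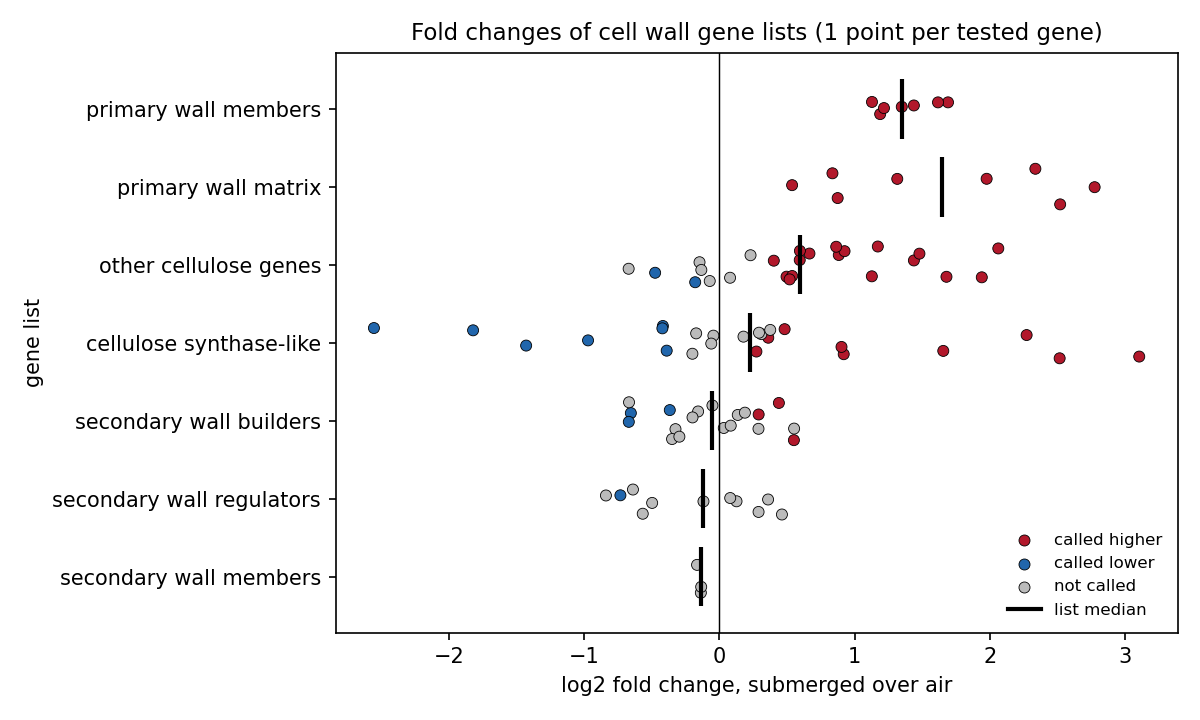
Log2 fold change, submerged over air, of every tested gene in each cell wall list, with 1 point per gene coloured by the edgeR call and a black bar at the list median. The primary wall members and the matrix genes lie wholly to the right of 0, and the secondary wall builders and regulators scatter around it.

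Markers of tissues were set beside these values, since whole seedlings mix roots and shoots. The summed CPM of 18 root markers ran from 51.4 to 90.9 in air and from 58.1 to 86.0 under water, and none of the markers was at 0 in all libraries. Of the 16 tested, 1 was called (6.25%, beside 55.0% of all genes). This was NRT2.1, called higher, on 20 counts in air and 58 under water. With the mean root marker level as a covariate, the primary wall log2 fold changes were 1.13 (CESA1) to 1.71 (CESA5). Air replicate 2 was above the mean of the other air libraries (log2 CPM) in 14 of 16 root markers and air replicate 3 in 2. Of the 7 primary wall members, air replicate 2 was above the mean of the other air libraries in 2 and air replicate 3 in 7. Submerged replicates 1, 2 and 3 were above the mean of the other submerged libraries in 14, 9 and 5 of 16 root markers. For the primary wall members these numbers were 5, 7 and 1 of 7, so submerged replicate 3 was lowest in both sets. The summed CPM of the primary wall members in air replicates 1, 2 and 3 was 2000.4, 1979.8 and 2079. Of all genes tested 26.1% fell, and of 6 leaf markers 5 did, with summed CPM from 23047 to 24687 in air and from 16773 to 18917 under water, and of 4 phloem markers tested 2 fell, with sums from 170 to 186 CPM in air and from 155 to 164 CPM under water. The part of leaf and phloem markers in the changes of the cellulose genes was not tested.

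Variation between replicates of a group was described by the deviation of each library from its group mean in log2 CPM, over 6 libraries. CESA5 and CESA6 followed the mean of the other primary wall CESA genes most closely (r = 0.981 and 0.987), then CESA3 (0.851) and CESA2 (0.781), while CESA1 did so least (0.250). The secondary wall genes did not vary together (r = -0.405 for CESA4, -0.401 for CESA7 and -0.313 for CESA8, each against the mean of the rest). The genes most like the primary wall CESA mean were AT1G73390, SHR, REV1, AT3G11280, AT3G54400 and AT5G16040, with r from 0.996 to 0.998. The secondary wall mean was taken over genes that did not vary together, so likeness to it describes no shared pattern of theirs. Genes most like this mean were AT4G27120, BES1, DAR6, AT5G56530, EMB2217 and MT2B, with r from 0.990 to 0.999. These are the highest of 14897 genes over 6 libraries that share their depth and scaling, of which 2.75% and 2.19% had r over 0.9 with the respective mean, and in the matrix list 0 of 8 genes reached it for the primary wall mean (median r 0.57, against 0.04 over all genes). That median was the highest of the lists. In the list of other cellulose genes 1 of 23 reached it (median r 0.30). The median r was 0.15 for the builders, -0.42 for leaf markers and -0.40 for phloem markers.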

How the data were processed

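Total RNA was extracted with Trizol, per the labels' protocols. The submitters' processing notes name the genome build TAIR10; the aligner, counter and strand setting are not stated there, in the labels or in the headers. Whole-number counts, RPKM, TPM and CPM per library were deposited, per the file headers. The CPM column deposited by the authors is a scaled signal that does not sum to the same total in each library, and it was not used. The authors also deposited a table of their own log2 fold changes and p-values, from which nothing is printed. CPM in the text comes from counts and TMM factors.

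The test was edgeR 4.0.16 under R 4.3.3 (TMM, filterByExpr with minimum count 10 and total 15, quasi-likelihood F test, no covariate, Benjamini-Hochberg adjustment over 19495 genes). SE values and 95% intervals come from that fit. The 10 members and the gene lists were chosen with earlier results of these data known. In each list the called genes with the 4 largest rises and 4 largest falls are named; COB, STL1, STL2, CSI2, CSI3, UGP1, UGP2, CINV1, CESA9, GAUT7, LAC4, NRT2.1 and the regulators other than VNI2 were added after their values were seen. Symbols follow common use where the deposited name differs (KOR1 is deposited as KOR, CMU2 as KLCR2, VNI2 as NAC083, VND7 as NAC030, PARVUS as GATL1, LAC4 as IRX12). The deposited table gives the name UGP1 to AT5G17310, which is UGP2 in TAIR10.1. Genes most alike were taken among genes with a mean of at least 5 CPM (log2 CPM with prior count 2). Low counts were mostly even (85.8% to 87.4% of counts from 1 to 20), and what makes them so was not tested. Transcripts and coding alignments (MAFFT 7.526) are from the TAIR10.1 annotation, and no positions are given since the build differs. Each group has 3 biological replicates, per the series' design text, which does not say how they were grown, so the p-values cover only the spread among these libraries. The procedure was tested on simulated counts. Alternatives were DESeq2 1.42.0, limma 3.58.1 voom, other scalings and filters, organelle genes left out, a replicate block, a root marker covariate, halved counts and leaving out each library.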

Additional observations from a re-analysis of the deposited data

How the results depend on the processing

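All 7 primary wall genes were called higher and none of the 3 secondary wall genes was called in each of the 17 alternatives run, and no total of called genes in a list moved by more than 1.5 times. Over these alternatives CESA1 ranged from 1.00 to 1.15 on the log2 scale, CESA5 from 1.57 to 1.78, and CESA4, CESA7 and CESA8 from -0.29 to -0.04. The lowest primary wall values came from upper quartile scaling, under which all genes had a median of -0.12 on the log2 scale in place of 0.01, and calls numbered 4465 higher and 6813 lower, in place of 5624 and 5094; the secondary wall genes then had adjusted p values of 0.0604 (CESA4), 0.0797 (CESA8) and 0.165 (CESA7). Under that scaling 22 of the 25 other cellulose genes tested were called, 17 higher and 5 lower in place of 17 and 2; without submerged replicate 1 or 2, 1 was called lower. The median of the secondary wall builders changed sign without air replicate 2 (0.04), submerged replicate 2 (0.02) or submerged replicate 3 (0.05) and with halved counts (0.0046), and that of the regulators without air replicate 2 (0.04). The cellulose synthase-like median, besides its sign changes given above, was 0.09 with the root marker covariate and 0.10 with upper quartile scaling. Same-numbered libraries did not deviate together (r = -0.037, 0.040 and 0.038), so the numbers were not read as pairs; with the replicate block 10347 genes were called in all and every primary wall gene kept its call (CESA1 1.13, adjusted p = 2.76e-07 by edgeR's test). With 1 library left out at a time, 7 primary and 0 secondary wall genes were called each time, and 18 to 19, 15 to 16, 8, 5 to 6 and 1 in the lists of other cellulose, cellulose synthase-like, matrix, builder and regulator genes. FLA11 was not called with DESeq2 (adjusted p = 0.0600) or with the replicate block (0.0591). The alternatives for list genes other than members were added after seeing the data. Low counts limit CESA9, CSLB6, most regulators, several secondary wall builders and the secondary wall CESA genes.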
